A study of Caenorhabditis elegans with 3 samples.

Results

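The *Caenorhabditis elegans* gene *sur-5* was examined as it is carried on the plasmid pTG96, from its start codon at position 3699 to position 7610, the last base before the reading frame of *gfp*. All 3 libraries came from strain HC566, which carries pTG96 as an integrated, repetitive transgene and was grown at 20 °C as a mixed-stage liquid culture fed *E. coli* OP50. The groups were genomic DNA read from both ends (paired-end DNA), genomic DNA read from 1 end (single-read DNA) and poly-A-selected RNA, each with 1 library, and no strain without the transgene was among them. Every list gives junctions, places where a read leaves the plasmid sequence at one base and continues at another, with the number of spanning reads. A junction was counted for *sur-5* when both of its edges lay in positions 3699 to 7610. This chose 207 of 809 junctions in paired-end DNA, 7 of 50 in single-read DNA and 185 of 372 in RNA. With a junction found in several lists counted once, these were 391 of 1193. They held 25666, 560 and 192442 spanning reads, which is 30.8%, 7.43% and 56.6% of the junction reads of their libraries. No group was replicated, so intervals cover counting error only and a test compares libraries, not conditions. Spanning reads are not independent molecules.

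SUR-5 is a protein related to acetyl-CoA and acetoacetyl-CoA synthetases, found through its genetic interaction with Ras signalling in the vulva. A fusion of *sur-5* to *gfp* is a common nuclear marker because it is made in nearly all somatic cells of the worm. Most introns of *C. elegans* are short, begin with GT and end with AG, usually in a run such as TTTCAG, and lack the long pyrimidine tract of vertebrate introns. RNA reads that join the ends of an intron come from spliced RNA, whereas in DNA the same skip would need a copy of the gene without its intron. A junction within 1 strand is called a deletion in DNA and deletion-like in RNA. A junction from the plasmid to its reverse complement is called an inversion, and it joins 2 bases tail to tail.

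RNA junction reads within *sur-5* mainly spanned 8 introns, and neither DNA list had a read across any of them. The introns were taken as the GT-AG junctions with at least 1000 RNA reads, so their high counts are part of how they were found. Together they cover 1571 of the 3912 bases, 40.2% of the gene, and leave 9 exon segments. They held 159726 reads, 83.0% of the RNA junction reads within *sur-5* (95% exact binomial interval 82.8% to 83.2%). The ends of the introns are shown because all later comparisons of exons and introns rest on them. Donors run from 6 exon bases into 10 intron bases and acceptors end 4 bases after the AG; GT and AG are in capitals, on the plasmid strand, read from the deposited plasmid sequence. The gene lies on chromosome X in the RefSeq gene table (assembly WBcel235).
Intron 1 donor (3913 to 3928): aatttgGTaatttttt
Intron 1 acceptor (4058 to 4076): atccacatttttaAGctga
Intron 2 donor (4171 to 4186): aaccagGTatggtatt
Intron 2 acceptor (4247 to 4265): acaaagtatttttAGgtta
Intron 3 donor (4748 to 4763): taaaagGTtggttact
Intron 3 acceptor (4789 to 4807): tggtataacttccAGagct
Intron 4 donor (5178 to 5193): taattgGTgagatttt
Intron 4 acceptor (5589 to 5607): tttttaacatttcAGgatg
Intron 5 donor (5765 to 5780): cattcaGTaagtatat
Intron 5 acceptor (5817 to 5835): atcaacgactttcAGacac
Intron 6 donor (5927 to 5942): ccaggcGTatgttctt
Intron 6 acceptor (5973 to 5991): aaagtttttttatAGgctc
Intron 7 donor (6118 to 6133): acatggGTacgtgcaa
Intron 7 acceptor (6656 to 6674): gtatccgaattgcAGatga
Intron 8 donor (6975 to 6990): acttgtGTaagttgat
Intron 8 acceptor (7165 to 7183): acattttttttccAGcgaa

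Of these donors, 6 of 8 begin with GTA and 2 with GTAAGT. Of the acceptors, 5 of 8 end in CAG, and those of introns 1, 2 and 6 end in AAG, TAG and TAG.

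Reads per intron differed by 3.08 times and did not rise steadily along the gene. Intron 1 (3919 to 4072, 154 bases) had 11774 reads (95% exact Poisson interval 11562 to 11989). Intron 2 (4177 to 4261, 85 bases) had 13208, and intron 3 (4754 to 4803, 50 bases) had 15279. Intron 4 (5184 to 5603, 420 bases) had 14702 reads (14465 to 14942) and intron 7 (6124 to 6670, 547 bases) had 14455 (14220 to 14693). These intervals overlap, so the order of introns 4 and 7 was not resolved. Introns 5 (5771 to 5831, 61 bases) and 6 (5933 to 5987, 55 bases) had 27022 (26701 to 27346) and 27077 reads (26755 to 27401) and overlapped in the same way. Intron 8 (6981 to 7179, 199 bases) had 36209 reads (35837 to 36584), above all other *sur-5* introns. Introns 5 and 6 thus stood above both of the introns next to them. The endogenous *sur-5* locus gives reads at identical positions, which cannot be told apart from those of the transgene.

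**Figure D1:**
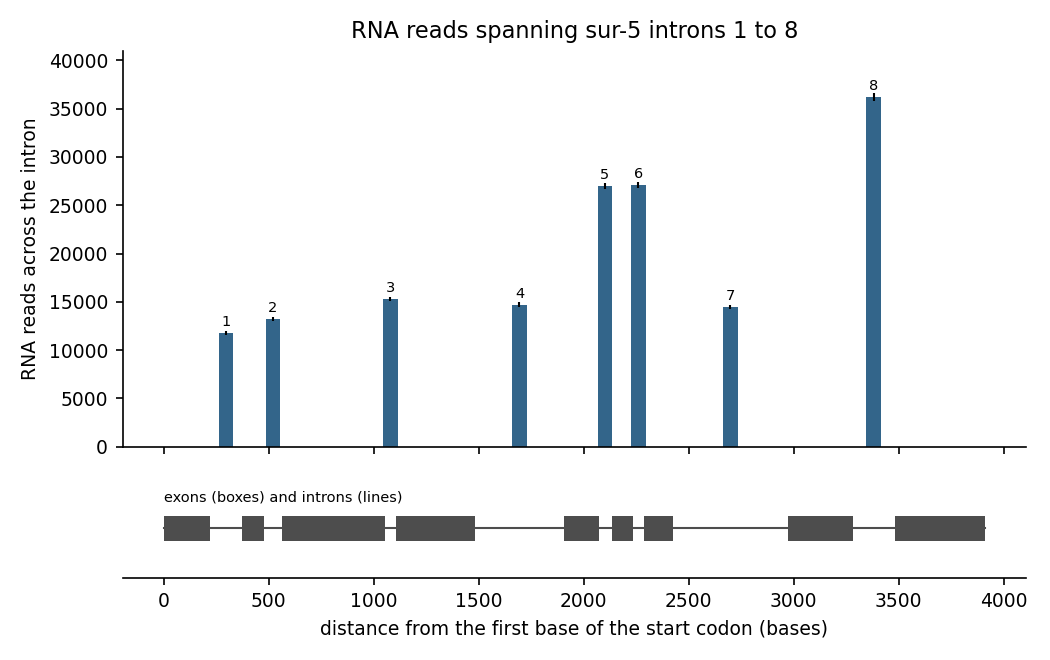
Bars give the RNA reads spanning introns 1 to 8 (95% exact Poisson intervals) against distance from the *sur-5* start codon, over a map of exons (boxes) and introns (lines). Introns 5, 6 and 8 have 27022, 27077 and 36209 reads and the other introns 11774 to 15279.

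The DNA lists had 0 reads at each of the 8 introns, which allows up to 0.0036% of the 83417 paired-end junction reads and up to 0.0398% of the 7536 single-read ones. The shortest skip anywhere in the paired-end list was 61 bases and in the single-read list 51 bases. Introns 3 and 6, of 50 and 55 bases, were therefore shorter than any skip listed in paired-end DNA, and intron 3 also shorter than any in single-read DNA. Whether skips that short could be listed there is not known. The limits above are shares of all junction reads on the plasmid, not of coverage at an intron. At none of the 8 introns does a count of 0 therefore bound the share of copies without the intron.

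At each of the 8 introns the main pair of sites took most of the reads. Of RNA reads leaving a donor on the sense strand at GT-AG or GC-AG junctions, the main intron took between 99.3% (intron 1, 95% exact binomial interval 99.1% to 99.4%) and 100%. Over junctions with any ends, 1 more left a main donor, and it lowered the share of intron 2's donor from 100% to 95% (94.7% to 95.4%). That junction, 4176 to 4227, had 688 reads (638 to 741), 4.95% of the reads leaving the donor, and was listed on both copies of the reference. It skips 50 bases inside intron 2, as many as intron 3 has, and its skipped stretch begins with GT and ends with AT, which the list gives as AT-AC on the antisense strand. No read left the donor of intron 3 for another acceptor. Of reads arriving at an acceptor, whatever the ends, the main intron took between 98.7% (intron 6, 98.6% to 98.8%) and 100%. The lowest shares after intron 6 were at the acceptors of introns 4 (99.1%) and 7 (99.6%).

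Exon skipping was rare: 6 skips were listed in RNA with 125 reads, 0.0782% of the reads of skips and main introns together (95% exact binomial interval 0.0651% to 0.0932%). The skip from intron 1's donor to intron 4's acceptor, 3918 to 5604, left out exons 2 to 4 and had 52 reads (95% exact Poisson interval 38.8 to 68.2). It made up 0.439% of the reads leaving that donor. Skipping of exon 8 (6123 to 7180) had 29 reads and of exon 7 (5932 to 6671) had 22. The skip from intron 1's donor to intron 8's acceptor (3918 to 7180) left out exons 2 to 8 and had 13 reads. Skipping of exon 6 (5770 to 5988) and of exon 2 (3918 to 4262) had 6 and 3 reads. Of these 6 skips, 3 began at intron 1's donor, and their skips of 3 or more exons outnumbered in reads its skip of exon 2 alone. None of the 6 was listed in either DNA library.

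Among sense-strand GT-AG and GC-AG junctions, the alternative site with the most reads was a GC donor 2 bases upstream of intron 6's GT donor. The junction 5930 to 5988 had 345 RNA reads (310 to 383), 1.26% of the reads arriving at that acceptor (95% exact binomial interval 1.13% to 1.40%). It has 4 identical bases at its edges, so reads alone do not fix its position, which is given as listed. A further donor 4 bases downstream of the main one (5936 to 5988) had 7 reads. Both shifts, of 2 and 4 bases, are no multiple of 3. The intron is shown with the exon bases next to it, from 5923 to 5997, with the letters of the 3 donors and the AG in capitals; the GC and the main GT touch.
Intron 6: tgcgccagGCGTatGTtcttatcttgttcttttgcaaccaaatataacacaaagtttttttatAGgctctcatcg

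Other alternative sites had fewer reads. At intron 8, a donor 2 bases upstream (6978 to 7180) had 36 reads and an acceptor 5 bases downstream (6980 to 7185) had 14, against 36209 at the main sites. A donor 43 bases upstream of intron 4's (5140 to 5604) had 32 reads, and one inside exon 6 joined to intron 7's acceptor (5876 to 6671) had 43. Inside intron 4, an acceptor before 5373 had 7 reads from the main donor (5183 to 5373), and a donor after 5552 had 20 reads to the main acceptor (5552 to 5604). Between them lie 180 bases, a multiple of 3, which hold 3 stop codons in the frame of exon 4. Whether both sites are used in the same RNA cannot be read from single junctions.

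**Figure D2:**
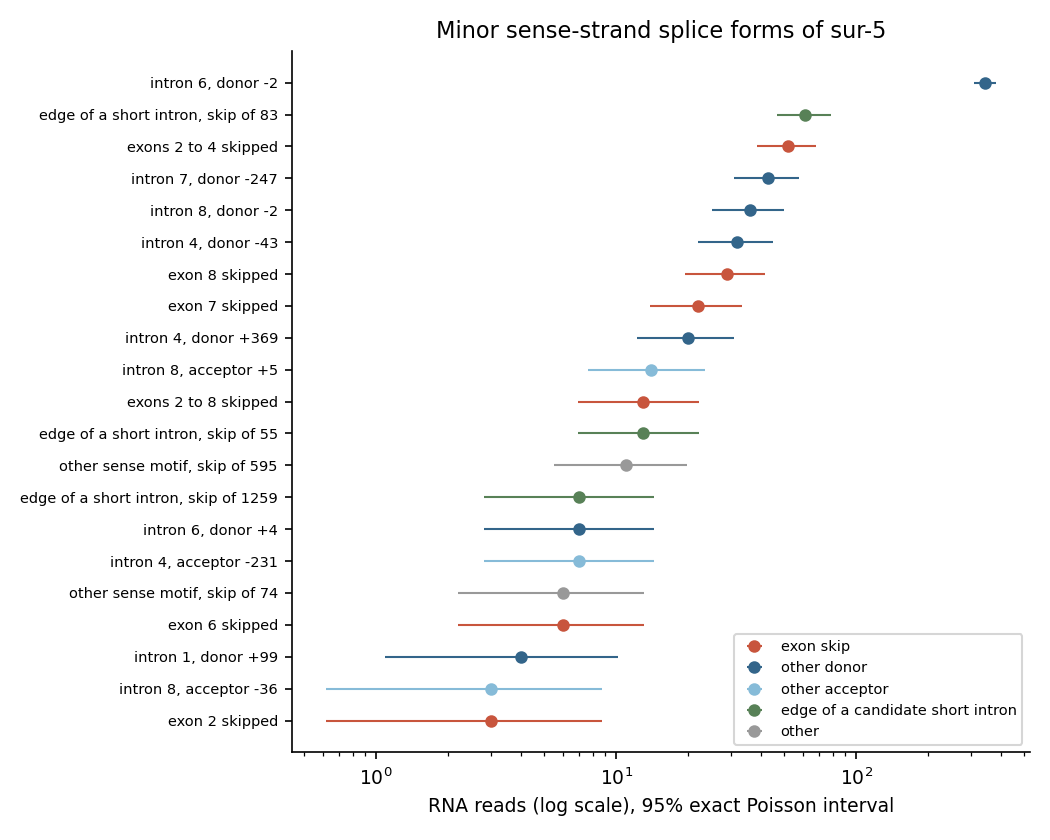
Points give RNA reads (log axis) of each sense-strand GT-AG or GC-AG junction of *sur-5* other than the 8 introns with at least 3 reads, with 95% exact Poisson intervals; shifts of donors and acceptors are in bases from the main site. The GC donor of intron 6 lies at 345 reads and all others at 61 or fewer.

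The 9 exon segments as they stand do not give an open reading frame into *gfp*. A search over GT-AG stretches of 40 to 49 bases opened it by removing 4 of them at the fewest. Other lengths and GC-AG ends were not tried. Deletion-like RNA junctions with GT-AG ends on the sense strand touched the ends of 3 of these 4 candidate introns. By the limit of the search, all are shorter than the shortest skip in the RNA list, 50 bases. None could therefore be seen as a junction of its own. With GT and AG ends they can be placed in 8 ways, of which 1 intron, 4956 to 4998, is common to all. Its donor was joined to 5039 with 61 reads (4955 to 5039) and its acceptor was reached from 4943 with 13 reads. A junction from the same donor with AT-AC ends on the antisense strand, 4955 to 5607, had 111. The acceptor of the candidate 7337 to 7382 was reached from the donors of introns 7 and 8 (6123 to 7383 and 6980 to 7383) with 7 and 1 reads. The alternative to it, 7301 to 7340, was touched by no sense-strand deletion-like RNA junction with GT-AG or GC-AG ends. An RNA inversion with AT-AC ends, 7285 and 7300 with 468 reads, had an edge at the last base before it. The donor shared by the candidates 7532 to 7573 and 7532 to 7576 was joined to 7875, past the start of *gfp* (7531 to 7875), with 41 reads; that acceptor had 25673 reads from its main donor at 7823. No sense-strand deletion-like RNA junction with GT-AG or GC-AG ends used the ends of 4383 to 4429 or 4389 to 4429. An RNA inversion with GT-AG ends, 4316 and 4382 with 9 reads, had an edge at the last base before 4383. A paired-end DNA deletion with GT-AG ends, 4181 to 4430, ended at the acceptor of both candidates with 117 reads. Junctions at such ends were thus not confined to RNA. How often such matches arise by chance was not tested. One placement of each is shown with 5 bases of exon on each side, GT and AG in capitals.
Short intron 4383 to 4429: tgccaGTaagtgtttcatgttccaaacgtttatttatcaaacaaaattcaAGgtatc
Short intron 4956 to 4998: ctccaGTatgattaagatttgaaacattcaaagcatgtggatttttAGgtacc
Short intron 7337 to 7382: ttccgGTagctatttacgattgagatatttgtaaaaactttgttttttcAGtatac
Short intron 7532 to 7573: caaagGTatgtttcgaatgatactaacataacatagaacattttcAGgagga

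The other RNA deletion-like junctions were mostly ones without a splice motif. Of 107 deletion-like junctions in *sur-5*, 64 had no GT-AG, GC-AG or AT-AC ends on either strand, and all 64 skipped exactly as many bases as a junction with such ends in the RNA list. They held 18334 reads, 10.1% of the deletion-like reads, and 48 of them, with 17897 reads, had the length of a *sur-5* intron. The junction from 6013 to 6069, with 1912 reads, skips 55 bases like intron 6, and that from 5793 to 5849, with 1524, does too. Those that skip 50 bases, as many as intron 3 has, numbered 11 and held 5510 reads, equal to 36.1% of the reads of intron 3 itself. They share its length and lie at other positions. All 64 were listed on 1 copy of the reference only, whereas all 8 introns were listed on both. The median of the shorter matched stretch beside the junction was 40 bases for the 64 and 122 for the introns. A further 12 junctions had AT-AC ends or a motif on the other strand, with 1929 reads. They include 4176 to 4227 and 4955 to 5607, above. The one with the most reads, chosen here after its values were seen, was 5692 to 5749 with 829 reads and GT-AG ends on the antisense strand.

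Deletions within *sur-5* were few in DNA and only 1 was in both libraries. Paired-end DNA had 13 deletions (95% exact Poisson interval 6.92 to 22.2) with 1454 reads and single-read DNA had 4 (1.09 to 10.2) with 551. The shared deletion, 5930 to 6070, removes all 55 bases of intron 6 and 84 exon bases. It had 472 of 7536 junction reads in single-read DNA, 6.26% (95% exact binomial interval 5.73% to 6.83%), and 60 of 83417 in paired-end DNA, 0.0719% (0.0549% to 0.0926%). Its upper edge as listed, 5930, is also the last base before the GC donor listed in RNA. Both junctions can slide without changing the joined sequence, over 7 identical bases in the deletion and 4 in the RNA junction. The equal edge is thus one of placement in the lists. The deletion with the most paired-end reads, 5084 to 6017, had 832 reads (776 to 891) and removes 932 bases, with introns 4 to 6 and exons 5 and 6 whole. It was not in the single-read list. The bases around both edges are shown, 15 on each side, because both deletions join a short repeated stretch, in capitals.
Deletion 5084 to 6017, upper edge (5070 to 5099): cacggtcGGAGGAACcttgctcaagcacat
Deletion 5084 to 6017, lower edge (6002 to 6031): gatttctGGAGGAACtgacattattggatg
Deletion 5930 to 6070, upper edge (5916 to 5945): cttatattgCGCCAGGcgtatgttcttatc
Deletion 5930 to 6070, lower edge (6055 to 6084): tgtcaatcaCGCCAGGagagtgtcagtgtt

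The other DNA deletions had fewer reads. In paired-end DNA, 4984 to 5160 had 216 reads with 9 identical bases at its edges, and 4986 to 5162, with 38, removes the same 175 bases counted from a shifted edge. The deletion 4181 to 4430 had 117 reads, 5782 to 5875 had 74 and 6260 to 6698 had 71. In single-read DNA, 5085 to 5137 had 55 reads, 6496 to 6649 had 16 and 5811 to 5863 had 8. Of the 13 paired-end deletions, 12 removed exon bases and 5 removed at least 1 whole intron, each together with exon bases.

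Inversions made up nearly all junctions within *sur-5* in paired-end DNA and less than that in the other libraries. Paired-end DNA had 194 inversions among 207 junctions, 93.7% (95% exact binomial interval 89.5% to 96.6%), with 24212 reads. Single-read DNA had 3 of 7, 42.9% (9.90% to 81.6%), with 9 reads. RNA had 78 of 185, 42.2% (35.0% to 49.6%), with 11716 reads. The paired-end share was higher by 51.6 points than that in RNA (Fisher's exact test, two-sided, p = 4.7e-30 after Benjamini-Hochberg adjustment over 3 pairs) and by 50.9 points than that in single-read DNA (exact test, adjusted p = 0.0013). The difference of 0.695 points between single-read DNA and RNA did not pass the exact test (adjusted p = 1). The RNA junctions include introns and other splice forms, all deletion-like, so a lower inversion share in RNA is partly built in. These tests also treat junctions as independent, which they are not. With the 8 introns left out, a setting chosen after seeing the data, the RNA share was 44.1%. Over junctions with a splice motif alone, the RNA share was 63.6% and the paired-end share exceeded it by 31.0 points (exact test, adjusted p = 8.1e-12). Outside *sur-5*, inversions were 67.6% of 602 paired-end, 41.9% of 43 single-read and 32.1% of 187 RNA junctions. The rule takes only joins that stay inside the gene, and over joins with at least 1 edge in *sur-5* the paired-end share was 79.3%, so these shares were not tested against the rest of the plasmid.

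In paired-end DNA, 1 inversion stood far above the others in reads. The join of 5993 in exon 7 with 6262 in intron 7 had 4192 reads (4066 to 4321), 5.03% of the junction reads of the library. It was in neither of the other lists, where 0 reads allow up to 0.0398% of single-read junction reads. The joins of 5637 and 5782 (1087 reads), 5748 and 6042 (842), 6529 and 6795 (830) and 5276 and 5393 (639) followed. These 5 held 31.3% of the inversion reads in *sur-5*, and the median inversion had 53.5 reads. In single-read DNA the inversions were 4881 to 6484 with 5 reads, 4870 to 6495 with 2 and 5097 to 5276 with 2. The last of these was also in paired-end DNA, with 133 reads.

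Identical bases at the joined edges were more common in paired-end inversions than in RNA inversions, and how many arise by chance was not tested. In paired-end inversions of *sur-5* the median was 3.50 identical bases, the longest stretch had 11, and 61 of 194 (31.4%, 25% to 38.5%) had 5 or more. In RNA inversions the median was 1 base, 32 of 78 had none, the longest stretch was 8, and 11 of 78 (14.1%, 7.26% to 23.8%) had 5 or more. Outside the gene, 150 of 407 paired-end inversions (36.9%) and 6 of 60 RNA inversions had 5 or more. The following lines give 15 bases on each side of an edge, the first edge on the plasmid strand and the second on the reverse complement, which is the strand on which the read goes on; the identical stretch is in capitals. They are the leading paired-end inversion, one at a repeatedly used position of intron 4, the 2 RNA inversions with the most reads, and the inversion with the most RNA reads among those also in paired-end DNA.
Inversion 5993 and 6262, first edge (5979 to 6008): tttttataggctctCATCGCgtcgatttct
Inversion 5993 and 6262, second edge (6247 to 6276): gaatttttgagataCATCGCaatttgccga
Inversion 5276 and 5393, first edge (5262 to 5291): actgtcccctgAAATGTTTTtttgtattta
Inversion 5276 and 5393, second edge (5378 to 5407): gcgaattgccaAAATGTTTTatttcttgaa
Inversion 5876 and 6089, first edge (5862 to 5891): cagtctactcgaCAGGttcgccattgaaga
Inversion 5876 and 6089, second edge (6074 to 6103): aatatccattccCAGGaacaaacactgaca
Inversion 7229 and 7261, first edge (7215 to 7244): tgaaaatggttccggGtcaagagctcacac
Inversion 7229 and 7261, second edge (7246 to 7275): gagtttagaaacaatGgctgcctggatact
Inversion 7287 and 7298, first edge (7273 to 7302): actccggaacgACATGTCcccgcgacatgt
Inversion 7287 and 7298, second edge (7283 to 7312): ttttgtttggaACATGTCgcggggacatgt

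Over the 30 bases shown, 10 were identical for 5993 and 6262, 15 for 5276 and 5393, 9 for 5876 and 6089 and 4 for 7229 and 7261. For 7287 and 7298 it was 17, in windows that overlap.

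RNA inversions lay in exons, and those of DNA were spread over exons and introns. Of the 156 edges of RNA inversions, 150 (96.2%, 95% exact binomial interval 91.8% to 98.6%) were in exon segments, which make up 59.8% of the gene. Of the 388 edges in paired-end DNA, 210 were (54.1%, 49% to 59.2%). Both edges were exonic in 72 of 78 RNA inversions, with 99.5% of their reads, and in 62 of 194 paired-end inversions, with 21.2% of theirs. Intron 7 held 63 paired-end edges and none from RNA, and intron 4 held 60 and 3. The 6 RNA edges in introns were 3 at 5513 in intron 4, 2 at 5934 in intron 6 and 1 at 7156 in intron 8, in inversions of 1 to 23 reads. The intervals treat edges as independent, although inversions share edges, and no test was made of this difference. RNA reads are few where RNA is spliced out, and the part of read coverage in these counts was not tested.

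**Figure D3:**
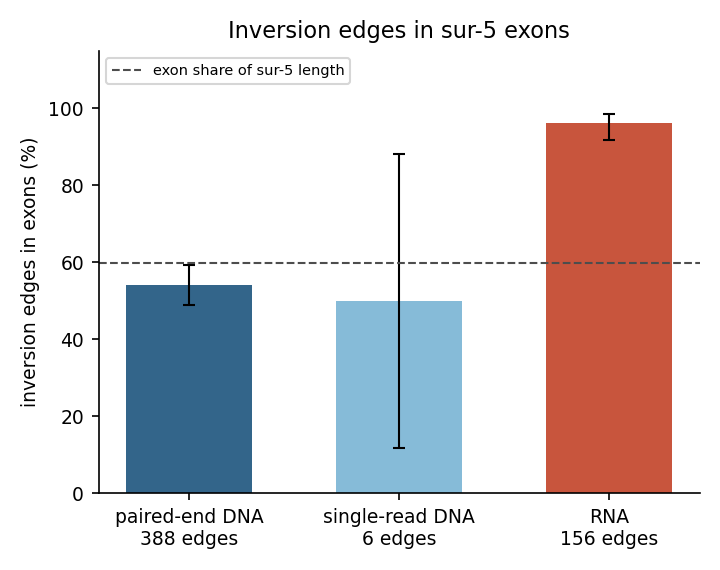
Bars give the percent of inversion edges in exon segments of *sur-5* for each library, with 95% exact binomial intervals; the dashed line is the exon share of the gene's length. RNA is at 96.2% and paired-end DNA at 54.1%, against 59.8% by length.

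The 130 bases that lie in a candidate short intron under every placement found held 17 edges of paired-end inversions and 1 edge of an RNA inversion. The candidate common to all placements, 4956 to 4998, held 11 and 0.

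Density along the gene differed between segments. In paired-end DNA, exon 7 had 16.9 inversion edges per 100 bases, exon 6 14.9 and intron 4 14.3, against 4.09 in exon 1 and 0 in the 50 bases of intron 3. The highest value, 21.8, was in the 55 bases of intron 6, from 12 edges. In RNA, exons 7, 8 and 9 had 11.8, 9.68 and 9.98 per 100 bases and exon 1 had 0.909.

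**Figure D4:**
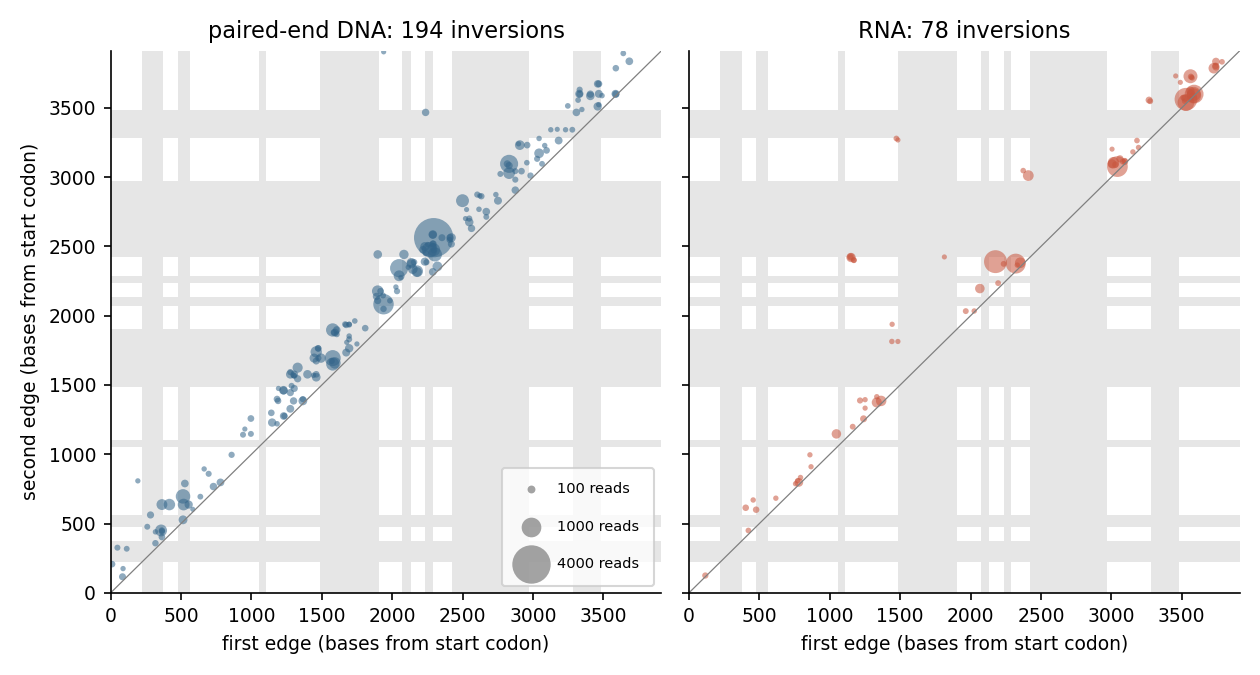
Each point is an inversion, placed by its lower and higher edge in bases from the *sur-5* start codon, with area growing with reads; grey bands are introns 1 to 8. The 194 paired-end inversions follow the diagonal through exons and introns, with the join of 4192 reads in the middle, and the 78 RNA inversions fall mainly where exon meets exon.

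RNA inversions joined closer bases than paired-end ones, and in both libraries some joined different exons. The distance between the joined bases had a median of 69 (interquartile range 32.2 to 196) in RNA and 186 (109 to 253) in paired-end DNA. At most 100 bases separated the edges in 47 of 78 RNA inversions (60.3%, 48.5% to 71.2%) and in 45 of 194 paired-end inversions (23.2%, 17.5% to 29.8%). Paired-end distances ended sharply, with 189 of 194 within 350 bases, whereas 7 RNA inversions and 2 paired-end ones spanned over 1000. Of the 72 RNA inversions with both edges in exons, 18 joined different exons, with 2534 reads. Of the 62 such paired-end inversions 20 did, with 2566 reads. Those of the 8 introns that lie between the edges were then taken out, and candidate short introns were left in. The RNA join of 6109 in exon 7 and 6710 in exon 8, with 250 reads, went from 601 to 54 bases. That of 5876 and 6089 went from 213 to 158, and that of 4850 in exon 4 and 6119 in exon 7, with 169 reads, from 1269 to 733. By this count the number within 100 bases went from 46 to 52 of 72 in RNA and from 22 to 26 of 62 in paired-end DNA. The medians went from 65 to 60.5 bases in RNA and from 152 to 124 in paired-end DNA.

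**Figure D5:**
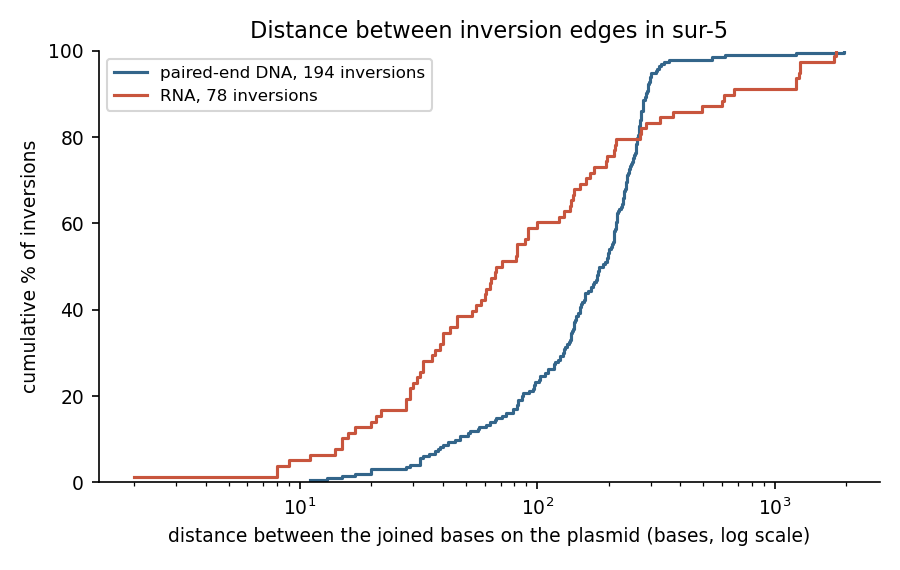
Lines give the cumulative percent of *sur-5* inversions against the distance between the joined bases (log axis) for paired-end DNA and RNA. The medians are 186 and 69 bases, and the paired-end line is nearly complete at 350 bases.

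The RNA inversions with the most reads lay in the later exons. The join of 5876 in exon 6 and 6089 in exon 7 had 1379 reads, that of 7229 and 7261 in exon 9 had 1357, and that of 6742 and 6775 in exon 8 had 1117. They were followed by 6020 and 6075 in exon 7 (1021 reads) and 7287 and 7298 in exon 9 (908). These 5 held 49.4% of the RNA inversion reads in the gene. In 33 of the 78, the edges lay around the same midpoint as those of another RNA inversion, on 14 midpoints. An example is 7261 and 7427 with 469 reads, whose midpoint 3 further joins of 4 to 31 reads shared. In paired-end DNA 27 of 194 did so, on 13 midpoints. Some of these are the same join listed at shifted edges. With such edges joined, 190 inversions remained in paired-end DNA and 77 in RNA.

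A few RNA inversions began at the end of an exon. Nearly all listed inversions had GT-AG, GC-AG or AT-AC ends, 75 of 78 in RNA and 192 of 194 in paired-end DNA. Listed edges thus lie mostly beside such bases, and whether exon ends exceed what this gives was not tested. In RNA 6 of the 78 had an edge at the last exon base before one of the 8 introns, with 156 reads, against 1 of 194 in paired-end DNA, with 26. Of the 6, 4 had GT-AG ends: 4848 and 6123 with 91 reads, 5183 and 5513 with 4, 5183 and 6967 with 2, and 5513 and 6123 with 1. No inversion edge in any library lay on the first exon base after one of the 8 introns. The lists hold only tail-to-tail joins, which keep the sequence before each edge. A join that starts at such a base and runs on into the exon could not be listed, so its absence says nothing about acceptors.

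Single positions recurred as edges in paired-end DNA. The 388 edges fell on 226 positions, of which 12 were used 5 times or more. Position 5393 in intron 4 was an edge of 9 inversions with 12 to 639 reads each, and 5276, also in intron 4, of 7 with 52 to 639 reads. In RNA, with 156 edges, no position was used more than 3 times. The unequal numbers of edges were not adjusted for. Paired-end DNA and RNA inversions had 44 edge positions in common, 34.9% of the 126 in RNA and 19.5% of those in paired-end DNA. The same share over the whole plasmid is not given here. Listed edges lie mostly beside bases of a splice motif, and how many common positions arise by chance was not tested. Such an edge was found in 40 of the 78 RNA inversions. Of the 5 leading RNA inversions, 4 had one, although only 1 of them was itself in the paired-end list.

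Few junctions of *sur-5* were in both the paired-end DNA and the RNA list, as on the plasmid as a whole. Paired-end DNA and RNA shared 6 junctions with equal edges, counted as listed, 3.24% of the RNA and 2.90% of the paired-end junctions in the gene. Over the whole plasmid 3.76% of RNA junctions were in the paired-end list. All 6 were inversions with both edges in the same exon, of 4 to 7 identical bases. The joins of 7287 and 7298 (65 paired-end and 908 RNA reads) and of 7285 and 7300 (107 and 468) have the same midpoint and the same identical stretch, printed above. They therefore give the same joined sequence and are 1 join listed at edges shifted by 2 bases. The joins of 5064 and 5084 had 141 paired-end and 232 RNA reads and those of 4479 and 4496 had 95 and 141. Those of 6881 and 6963 had 98 and 16, and those of 4558 and 4695 had 36 and 7. Read numbers of the 6 thus followed no common order between the libraries, whose numbers of mapped reads are not known.

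The DNA libraries shared 2 junctions, the deletion 5930 to 6070 and the inversion of 5097 and 5276. That is 28.6% of the 7 single-read junctions, where 38.0% of the single-read junctions on the whole plasmid were in the paired-end list. Single-read DNA and RNA shared none in *sur-5*, against 2.15% of RNA junctions over the whole plasmid.

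The authors' deposited table of 25 rearrangements holds 6 within *sur-5*, 5 inversions and 1 deletion, all from paired-end reads. In the authors' deposited table the join of 5993 and 6262 had 2398 reads at a mean coverage of 13289.5, or 18.0%. The join of 3747 and 4025 came to 8.31% in the authors' deposited table, that of 6529 and 6795 to 6.83%, that of 5748 and 6042 to 5.13% and that of 5876 and 6173 to 3.71%. The authors' deposited table gives the deletion 4862 to 5116 as 7.25% of coverage, found with the fusion search of TopHat2. The read counts do not match those in the junction list. For 5993 and 6262, 6529 and 6795, and 5748 and 6042 the list had 1.75, 1.52 and 1.58 times the reads of the authors' deposited table. For 3747 and 4025 the list had 29 reads against 862 in the authors' deposited table. The inversion of 5876 and 6173 and the deletion 4862 to 5116 were not in the list, nor was any junction of their class within 5 bases of both edges.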

How the data were processed

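Junction lists of 3 libraries were used, grouped by their titles. Reads were mapped with TopHat2, per the submitters' processing notes and the file headers, to a reference whose deposited sequence is pTG96 followed by its reverse complement. Version, settings and mapped read numbers: not given in the sources used here. Deposited counts of spanning reads, not normalized, make up the lists. The authors' deposited table holds read counts, coverage at the edges as a signal, and reads as a percent of mean coverage; its positions were raised by 1. The deposited plasmid sequence has 12006 bases.

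Both edges of each junction were computed from the start, end and block lengths of its line. Lines with an edge outside the reference were left out (923, 6 and 43). Where both copies of the reference listed the same junction, the lines were merged within a list and the higher count was kept. No gene annotation with exons was used here, so introns were taken from RNA junctions, as planned for that case. Intervals are exact Poisson for counts and exact (Clopper-Pearson) binomial for shares, at 95%. For a count of 0, the upper limit was set at 3 reads. Neither reads nor junctions are independent. The inversion shares of the libraries were tested with Fisher's exact test with Benjamini-Hochberg adjustment over 3 pairs, at a threshold of 0.05. Python 3.11.15, SciPy 1.17.1 and pandas 2.3.3 were used. The reading of lists was tested on simulated lines. Junctions were named by rule: every intron and exon skip, shared junctions, the 5 with the most reads per library and class, and those in the authors' table. Alternative sites, junctions from main donors with other ends, short introns and recurrent positions were added after their values were seen. The gene, its lists and these rules were chosen with earlier results of these data known.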

Additional observations from a re-analysis of the deposited data

How the results depend on the processing

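No paired analysis was possible because each group has 1 library. Requiring splice motifs lowered the deletion-like junctions of RNA from 107 to 43 and the deletions of single-read DNA from 4 to 2. It raised the inversion share in RNA to 63.6%, or to 68.2% with the introns also left out, a setting chosen after seeing the data; the junctions without a motif are mostly deletion-like, which by construction moves these values. With at least 10 reads, RNA kept 66 deletion-like junctions and single-read DNA 0 inversions, an inversion share of 0%. Counting joins with at least 1 edge in *sur-5* gave 67 paired-end deletions and an inversion share of 79.3%. Summing both copies instead of keeping the higher count gave 309915 reads over the 8 introns and 193 for exon skips. The paired-end share of inversions exceeded both others in each setting run; against single-read DNA, motif junctions alone gave 34.6 points (exact test, adjusted p = 0.049, against 4.1e-04 to 0.0068 in the other planned settings). The difference between single-read DNA and RNA ran from -46.3 to 1.01 points over the planned settings and passed the exact test in none of them (adjusted p 0.25 to 1). Allowing 5 bases between edges changed neither the number of exon skips nor the numbers shared. Single-read DNA has 7 junctions in the gene, so its shares are known only within wide intervals, and the number of mapped reads, which would set depth, was not used here.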

Other observations

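Splice sites of *sur-5* were also joined in RNA to sites outside the gene. The donor of intron 4 was joined to 11946 (5183 to 11946) with 59 reads, that of intron 7 to the same base with 14 and that of intron 8 with 7; most reads at that acceptor, 1403, came from 9289, past *gfp*'s start. The donor of intron 7 was joined to 8295 with 28 reads, at an acceptor with 34214 reads from 8243, and that of intron 1 to 7875 with 15, at one with 25673 reads from 7823. Upstream of the start codon, 3508 and 3471 were joined to the acceptor of intron 4 (5604) with 20 and 12 reads, and 3508 to that of intron 8 (7180) with 1. These junctions had GT-AG ends on the sense strand.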
